A study of Carassius auratus with 9 samples.

Results

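The mRNA of 3 myelin genes was followed across diets in muscle of Hefang crucian carp (*Carassius auratus*), a cultivated crucian carp. The genes are LOC113060025 (myelin basic protein-like), LOC113111672 (peripheral myelin protein 22-like) and *mpz* (myelin protein P0), which are 3 of the 76298 genes in the expression table. They were chosen by p-value, with earlier results of these data known, as the markers of nerve and Schwann cells with the smallest p-values in the MA group against the LA group. Their difference between these groups is therefore the reason they are described here, and their values are given without a test. The HA group was compared with the same LA and MA libraries, so the members carry no test in those comparisons either.

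Fish were fed for 8 weeks on a basal diet (LA), on that diet with 1.7% methionine (Met) and 3.4% lysine (Lys) added (MA), or with 3.4% Met and 3.4% Lys added (HA). The MA and HA groups thus differed from each other in added Met alone, and both differed from the LA group in Met and Lys together. Muscle RNA was enriched for poly(A) transcripts and sequenced as paired-end reads, with 3 libraries per diet described as biological replicates. Whether a library came from 1 fish or from several is not given in the sources used here.

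Myelin is the sheath of wrapped membrane that lets axons conduct quickly, and in the nerves that run through muscle it is made by Schwann cells and not by muscle fibres. Myelin protein P0 is the adhesion protein that holds neighbouring wraps together on their outer faces, myelin basic protein binds the inner faces to each other, and peripheral myelin protein 22 is a membrane protein of compact myelin whose gene dosage matters in inherited human neuropathies. The goldfish lineage went through an additional genome duplication, so each of these families has several copies. In RNA of whole tissue, fewer Schwann cells and less RNA per Schwann cell cannot be told apart.

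The libraries held between 13962770 and 17177610 counts in all, with medians of 15577604 in the LA group, 15671392 in the MA group and 14809869 in the HA group. Counts were scaled to library size as CPM with TMM factors of 0.890 to 1.15, and 23946 genes passed the filter on low counts, all 3 members among them. The tissue label fitted its markers, since creatine kinase M-type (LOC113049569) had a mean of 108321 CPM in the LA group, 89447 CPM in the MA group and 93453 CPM in the HA group. Library 3 of a diet often lay between libraries 1 and 2. This was asked of the genes at least 8-fold apart between libraries 1 and 2. Of them, 83.7% (LA), 86.0% (MA) and 86.1% (HA) stood well inside that gap in library 3 of the same diet. For library 3 of another diet the share was 49.3% to 67.0%. Whether the libraries of a diet are separate samples cannot be told from these shares. Libraries 1 and 2 were the furthest apart in each diet, and library 3 of another diet also differed in diet. LA1 and HA2 resembled each other more than any libraries of a shared diet did: over 4562 genes the median absolute log2 ratio was 0.127 between them and 0.209 between the next closest libraries. For the members, library 3 lay between the others in 4 of 9 cases (*mpz* in every diet and LOC113111672 in the MA group). This asked only for a value between, without the 8-fold gap. The share over all genes was not taken, so nothing can be read from this count.

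*mpz*, the most abundant of the members in CPM, lies on chromosome 2 of the goldfish assembly ASM336829v1 (22822670 to 22832111, plus strand). It stood at 59.7, 48.7 and 50.8 CPM in LA1 to LA3, at 86.5, 96.6 and 91.7 CPM in MA1 to MA3, and at 64.3, 62.6 and 63.3 CPM in HA1 to HA3. The MA libraries were the highest, the LA libraries the lowest, and no library of a diet fell within the range of another. The group means were 53.1 ± 5.83 CPM (LA), 91.6 ± 5.03 CPM (MA) and 63.4 ± 0.825 CPM (HA; SD over 3 libraries each). The lowest MA library was 1.45 times the highest LA library and 1.35 times the highest HA library, while the lowest HA library was only 1.05 times the highest LA library. In the edgeR fit the log2 fold change was 0.79 (SE 0.17; 1.73-fold) in MA against LA, 0.26 (SE 0.17; 1.19-fold) in HA against LA and -0.53 (SE 0.17) in HA against MA. The step from LA to HA was the smallest of these differences, and like the others it carries no test.

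LOC113060025, the myelin basic protein-like member, lies on chromosome 41 (7938760 to 7947774, minus strand). Its level was 8.10, 9.28 and 7.03 CPM in LA1 to LA3, 22.6, 26.3 and 19.2 CPM in MA1 to MA3, and 9.83, 7.23 and 10.1 CPM in HA1 to HA3. The MA libraries stood alone at the top, and the ranges of the LA and HA libraries overlapped. Means were 8.14 ± 1.13 CPM (LA), 22.7 ± 3.58 CPM (MA) and 9.04 ± 1.57 CPM (HA; SD over 3 libraries each). Even the lowest MA library was 2.07 times the highest LA library and 1.91 times the highest HA library. The log2 fold change was 1.48 (SE 0.22; 2.79-fold) in MA against LA and -1.33 (SE 0.22) in HA against MA, which made it the member with the largest difference in both comparisons. In HA against LA it was 0.15 (SE 0.22), the smallest of its differences. This member also rested on the fewest reads: its lowest count was 98 in LA3 (95% exact Poisson interval 79.6 to 119, which covers counting error only), whereas the highest count of any member was 1489 for *mpz* in MA2 (interval 1414 to 1567).

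LOC113111672, the peripheral myelin protein 22-like member, lies on chromosome 12 (7704495 to 7713203, plus strand). It stood at 30.7, 31.1 and 30.5 CPM in the LA libraries, at 60.4, 48.8 and 59.3 CPM in the MA libraries, and at 41.0, 41.1 and 38.6 CPM in the HA libraries. Each diet occupied its own range, with LA lowest, HA between and MA highest. Group means were 30.8 ± 0.300 CPM (LA), 56.2 ± 6.37 CPM (MA) and 40.2 ± 1.42 CPM (HA; SD, n = 3 each). The lowest MA library was 1.57 times the highest LA library and 1.19 times the highest HA library, and the lowest HA library was 1.24 times the highest LA library. The log2 fold change was 0.87 (SE 0.17; 1.83-fold) in MA against LA, 0.39 (SE 0.17; 1.31-fold) in HA against LA and -0.48 (SE 0.17) in HA against MA. Of the members it had the largest step from LA to HA and the smallest from MA to HA. Its LA libraries lay unusually close together, with a coefficient of variation of 0.975% against 11.3% in the MA group.

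**Figure D1:**
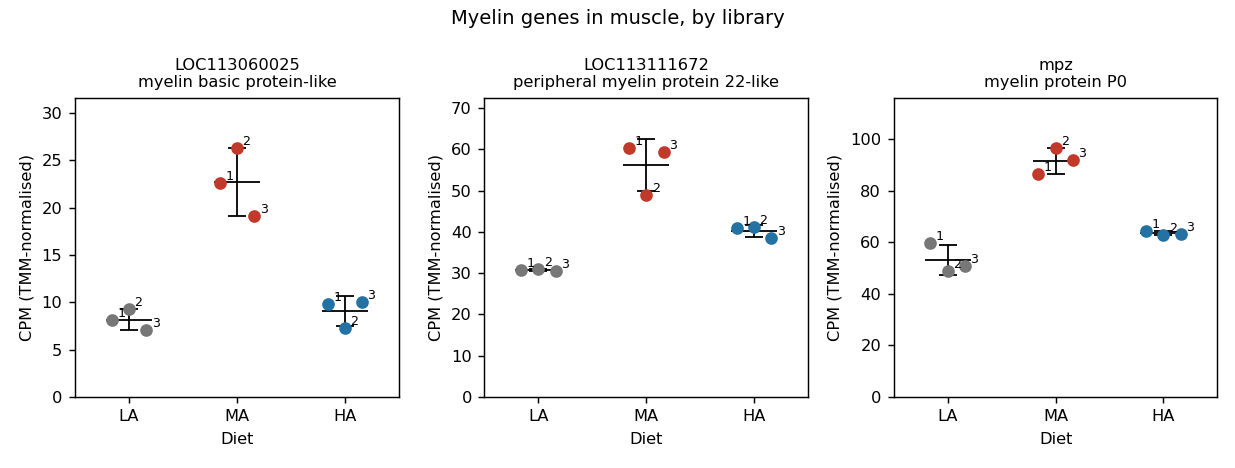
TMM-normalised CPM (vertical axes, starting at 0) of the 3 myelin genes in each library, by diet; points are libraries with their numbers, the horizontal bar is the mean and the error bar the SD (n = 3). The MA libraries lie above all LA and HA libraries in each panel, and the HA libraries lie above the LA libraries for LOC113111672 and *mpz* but overlap them for LOC113060025.

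Side by side, the 3 members were higher in every MA library than in every LA library, where 8.27% of all tested genes had such a separation in this direction. Nothing can be read from that count, since the members were chosen in this contrast. All MA libraries stood above all 6 others for each member, as they did in 3.47% of tested genes. In HA against LA, 2 of the 3 members (LOC113111672 and *mpz*) were separated upward, against a background of 5.16%. In HA against MA all 3 were separated downward, against a background of 8.55%. These counts also use the LA or MA libraries that chose the members, so nothing can be read from them either. The full order of MA above HA above LA with no overlap held for LOC113111672 and *mpz* and for 0.292% of tested genes, a pattern that rests on the LA and MA libraries that chose them. For LOC113060025, HA1 and HA3 lay above the highest LA library and HA2 lay within the LA range, whereas the other members lay above the LA range in all HA libraries.

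The members can be compared with each other only per length. In FPKM (the count divided by gene length and library total), LOC113060025 had group means of 6.60 ± 1.05 in LA, 19.9 ± 4.46 in MA and 8.24 ± 2.18 in HA (SD, n = 3 each). For LOC113111672 the FPKM means were 12.9 ± 0.686, 25.2 ± 1.70 and 18.7 ± 2.03, and for *mpz* they were 11.9 ± 0.689, 22.3 ± 3.34 and 15.9 ± 1.93 (LA, MA and HA; SD, n = 3 each). On this scale the libraries of LOC113111672 and *mpz* overlapped in every diet. Those of LOC113060025 lay below both in the LA and HA groups and overlapped them in the MA group. None of the members was a rare transcript: in mean CPM over all libraries LOC113060025 stood above 85.0%, LOC113111672 above 94.6% and *mpz* above 96.4% of tested genes. CPM is not divided by gene length, which was 1161, 2243 and 4188 bases in the same order. The mean also includes the MA libraries, which helped to choose the members.

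Across the 9 libraries the log2 CPM of the members moved together, with Pearson's r of 0.91 between LOC113060025 and *mpz*, 0.91 between LOC113111672 and *mpz*, and 0.84 between LOC113060025 and LOC113111672. These points share libraries and depth, and the members were chosen for a like difference between diets. With the diet means removed, r was 0.09, -0.41 and -0.52 in the same order. In the MA group, MA2 was the highest library for LOC113060025 and *mpz* and the lowest for LOC113111672.

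Libraries were also compared within ranks of the share of reads that mapped to the genome, a share that differed between the libraries of a diet (lowest in LA1, MA2 and HA2). For LOC113060025 the difference of MA from LA in log2 CPM was 1.27 between the libraries of high rank, 1.43 in the middle and 1.68 in the low rank. The corresponding values were 0.96, 0.96 and 0.67 for LOC113111672 and 0.83, 0.85 and 0.69 for *mpz*. Every MA library lay above every LA library for each member, so any pairing of libraries would give a positive difference. Nothing can be read from these signs. The difference of HA from LA in LOC113060025 went both ways, at 0.08, 0.51 and -0.16 from high to low rank. It was 0.40, 0.34 and 0.42 for LOC113111672 and 0.40, 0.32 and 0.07 for *mpz*. For both of these members every HA library lay above every LA library, so their signs were likewise fixed for any pairing.

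The families of the members held 15 copies by gene name, 6 of myelin basic protein, 7 of peripheral myelin protein 22 and 2 of myelin protein P0, and all 15 passed the filter on low counts. Among the 12 copies that are not members, 12 had a positive fold change in MA against LA, with a median log2 fold change of 0.64, where the median of all tested genes was -0.03 and 47.7% of them were positive. None of the 12 passed an adjusted p of 0.05 (edgeR's quasi-likelihood test with Benjamini-Hochberg adjustment, which called 0.0835% of tested genes in this comparison), while 6 were higher at an unadjusted p under 0.05 (5.3% of all tested genes) and 6 did not overlap upward (8.27%). DESeq2, which called 0.965% of all tested genes higher in the MA group, called 3 of them higher (LOC113045081, LOC113116490 and LOC113120103). In HA against LA, 9 copies had positive and 3 negative fold changes around a median of 0.10 (49.4% of all tested genes were positive), edgeR called 0 of the copies (and 0 of all genes), DESeq2 called 0 (0.205% of all genes), and none had an unadjusted p under 0.05. In HA against MA, 10 copies were negative (48.6% of all tested genes were), the median was -0.60 against 0.02 over all genes, edgeR called 0 of the copies (0.0543% of tested genes in this comparison), 5 were lower at an unadjusted p under 0.05 (4.84%) and 6 did not overlap downward (8.55%). DESeq2 called LOC113045081, LOC113056017 and LOC113120103 lower there, as it did 0.71% of all tested genes.

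The copy of *mpz*, LOC113045081 (chromosome 27), stood at 30.4, 17.1 and 23.02 CPM in the LA libraries, at 42.0, 106 and 67.5 CPM in the MA libraries and at 19.2, 34.8 and 26.3 CPM in the HA libraries. Its MA libraries lay above all others but were spread widely, MA2 being the highest. Its log2 fold change was 1.61 in MA against LA (SE 0.37, adjusted p = 0.167 by edgeR) and -1.42 in HA against MA (SE 0.37, adjusted p = 0.263 by edgeR). With the mapped-share rank as a block, edgeR called this copy in both comparisons (adjusted p = 0.0144 and 0.0222), where that fit called 0.484% and 0.409% of all genes. Over 18 alternatives its adjusted p (edgeR or DESeq2) ran from 0.00574 to 1.00 in MA against LA, with 4 calls, and from 0.0222 to 1.00 in HA against MA, with 3 calls. The copy was thus further from the LA level than *mpz* itself, and *mpz* made up 69.7% of the summed CPM of the pair in the LA group, 57.6% in the MA group and 70.6% in the HA group. In mean FPKM *mpz* was the higher of the pair in each diet, but in MA2 it held 47.6% of the summed FPKM of the pair, so the copy was the higher there.

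Of the other myelin basic protein copies, LOC113120103 (chromosome 19) was measured at 22.1, 14.5 and 19.4 CPM in the LA libraries, 29.9, 37.2 and 34.8 CPM in the MA libraries and 15.4, 19.5 and 16.3 CPM in the HA libraries. Its MA libraries did not overlap the rest, with a log2 fold change of 0.87 in MA against LA (SE 0.21, adjusted p = 0.186 by edgeR) and -0.995 in HA against MA (SE 0.21, adjusted p = 0.175 by edgeR). LOC113116490 (chromosome 16), a copy of low level, was at 0.640, 0.922 and 0.861 CPM in the LA libraries and at 3.01, 1.75 and 2.17 CPM in the MA libraries, and at 1.1, 1.51 and 1.26 CPM in the HA libraries, which lay between without overlap. Its MA against LA difference was a log2 fold change of 1.51 (adjusted p = 0.167 by edgeR). The remaining copies LOC113062336, LOC113060024 and LOC113116491 had log2 fold changes of 0.66, 0.63 and 0.61 in MA against LA. The member LOC113060025 was the fourth of the 6 copies by FPKM in the LA and HA groups and the highest in the MA group, where it had 19.9 FPKM against 17.5 for LOC113120103 and 17.4 for LOC113116491, a gap smaller than the SD of any of the 3. Its share of the summed CPM of the family was 14.3% in the LA group, 21.2% in the MA group and 15.4% in the HA group. Without the member the family still summed to 50.4 ± 11.5 CPM (LA), 84.4 ± 8.28 CPM (MA) and 51.0 ± 8.63 CPM (HA; SD over 3 libraries each).

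Copies of peripheral myelin protein 22 differed more among themselves. LOC113056017 (chromosome 37) had a log2 fold change of 0.80 in MA against LA (adjusted p = 0.325) and -1.17 in HA against MA (adjusted p = 0.253, both by edgeR), and LOC113067706 had 0.54 and -0.55. LOC113104569 had 2.02 in MA against LA (SE 0.65, adjusted p = 0.271 by edgeR), from counts of 3, 19 and 6 in the LA libraries and 21, 52 and 50 in the MA libraries. LOC113051368, LOC113111669 and LOC113074230 had 0.21, 0.22 and 0.06, none larger than its standard error. LOC113111669 lies on the chromosome of the member LOC113111672, 86500 bases away and on the other strand, and these neighbours differed in their values. The member had the highest FPKM of its family in every diet and made up 34.1% of the summed CPM of the family in LA, 41.3% in MA and 38.5% in HA. Without the member the family summed to 60.1 ± 10.2 CPM (LA), 80.1 ± 9.17 CPM (MA) and 64.3 ± 4.29 CPM (HA; SD over 3 libraries each). LA and MA overlapped in this sum, with 71.1 CPM in LA2 and 70.3 CPM in MA1.

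**Figure D2:**
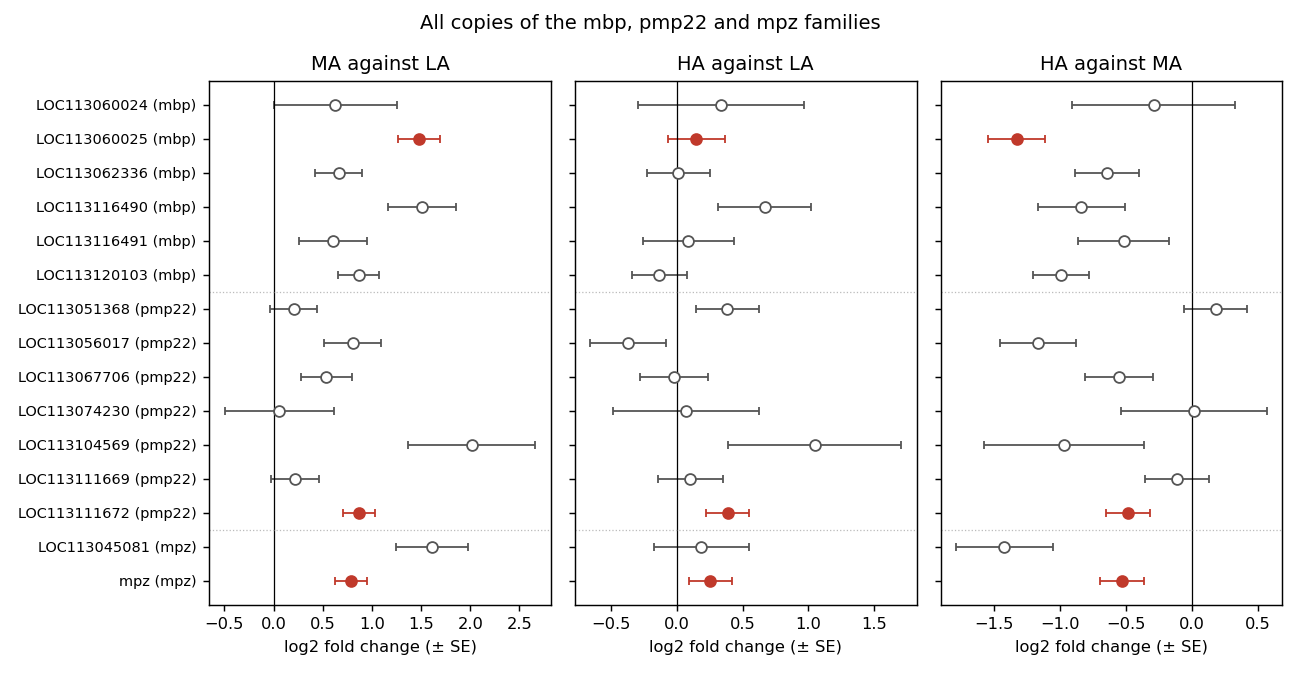
Log2 fold change with its standard error (horizontal axes) of the 15 copies of the 3 families in each comparison, members in red and other copies as open points. In MA against LA all 15 points lie above 0, and in HA against MA all 3 members and 10 of the 12 other copies lie below 0.

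The split of reads between copies adds an uncertainty that counting error leaves out. The models of LOC113060025 and LOC113060024 overlap by 1501 bases on the same strand, those of LOC113116490 and LOC113116491 by 3287 bases, and how reads shared by copies were assigned is not given in the sources used here. When counts were summed over each family before the fit, the log2 fold change in MA against LA was 0.87 for myelin basic protein, 0.58 for peripheral myelin protein 22 and 1.09 for myelin protein P0. The sums thus differed in the direction of the members but in another order of size. The library of low mapped share was the highest of its diet in all 3 diets for 4 copies, namely LOC113062336, LOC113116491, LOC113120103 and LOC113045081. It was the highest in 1 diet for LOC113060025, in 1 for LOC113111672 and in 2 for *mpz*, and in 0 for the copy LOC113074230. The share of all tested genes with such a pattern was not taken, so it cannot be called particular to these copies. The part of the mapped share in the values of the copies was not tested.

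Besides these families, lists of genes of the same biology were followed, fixed by name or symbol with an earlier description of these data known. With the 12 other copies they held 277 genes, of which 39 had no count and 100 passed the filter. In MA against LA, edgeR called 0 of the 100 (0.0835% of all tested genes). At an unadjusted p under 0.05, 19 were higher (5.3% of all tested genes) and 5 were lower (6.18%). Of the 19, 6 were among the 12 other copies and are counted above already. DESeq2 called 5 of them, all higher in the MA group (0.965% of all tested genes were), the 3 copies named above with the neurofilament heavy polypeptide-like gene LOC113041264 and the POU domain gene LOC113085621. The median log2 fold change was 0.34, and 68 of 100 were positive, among them all 12 other copies. Over all tested genes the median was -0.03 and 47.7% were positive, which also stands beside the lists below. In HA against LA, edgeR and DESeq2 called 0 of the list genes, where they called 0% and 0.205% of all tested genes. At an unadjusted p under 0.05, 1 gene was higher and 7 were lower (2.74% and 3.48% of all tested genes). The median was -0.02 against -0.01 over all genes. In HA against MA, edgeR called 0 (0.0543% of all tested genes). At an unadjusted p under 0.05, 4 were higher and 23 lower (5.2% and 4.84% of all tested genes), with 5 of the 23 among the 12 other copies. The median was -0.37 against 0.02 over all genes. DESeq2 called 5 lower there, where it called 0.71% of all tested genes lower. They were the 3 copies named above for that comparison, LOC113085621 and the ubiquitin hydrolase gene LOC113107027. With neither LA1 nor HA2 in the fit, edgeR called 7 of the list genes in MA against LA, 4 higher and 3 lower (2.16% of all genes in that fit). Without LA1 alone it called 2, both lower (1.15% of all genes), namely LOC113046939 and LOC113047371, described next.

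Genes named for other proteins of the myelin sheath went both ways. They were matched by name alone, and many are called myelin-associated glycoprotein-like or myelin protein zero-like protein 1, 2 or 3. Whether each of them belongs to myelin in this fish was not tested. Of 54 in the table, 16 were tested, and in MA against LA 9 were positive and 7 negative around a median of 0.24, with 3 higher and 3 lower at an unadjusted p under 0.05 (5.3% and 6.18% of all tested genes). Those of smallest p were lower in mean CPM: the 2',3'-cyclic-nucleotide 3'-phosphodiesterase-like genes LOC113047371 (log2 fold change -1.25, adjusted p = 0.225) and LOC113046939 (-1.04, adjusted p = 0.356, both by edgeR). In mammals the protein of this name belongs to the non-compact parts of myelin, and its place in this fish was not tested. The myelin-associated glycoprotein-like gene LOC113099174, of the family of adhesion proteins facing the axon, was erratic, with counts of 72, 1 and 38 in the LA libraries, 2, 0 and 0 in the MA libraries and 0, 63 and 28 in the HA libraries. For another copy, LOC113072155, the fit gave 0.99 (adjusted p = 0.397 by edgeR). A myelin proteolipid protein-like gene (LOC113091390) stood at 4.44 ± 0.459 CPM (LA), 4.27 ± 0.324 CPM (MA) and 2.28 ± 0.308 CPM (HA; SD over 3 libraries each), lower in the HA group than in both others without overlap (log2 fold change -0.90 against MA, adjusted p = 0.244 by edgeR). The tight junction gene claudin-19-like (LOC113110857) had a log2 fold change of -0.80 in HA against MA (adjusted p = 0.277), and dystrophin-related protein 2-like (LOC113114112), of the outer Schwann cell membrane, -0.76 (adjusted p = 0.339, both by edgeR).

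Genes of the node of Ranvier, the gap in the sheath where the axon fires, had a median log2 fold change of 0.56 in MA against LA, with 8 of 11 tested positive and 4 higher at an unadjusted p under 0.05 (5.3% of all tested genes). Neurofascin-like (LOC113055212), an adhesion protein that gathers channels at the node, was at 1.37 ± 0.605 CPM (LA), 3.14 ± 0.264 CPM (MA) and 1.38 ± 0.314 CPM (HA; SD over 3 libraries each). Its log2 fold change in MA against LA was 1.19 (adjusted p = 0.244 by edgeR). The gliomedin-like genes LOC113118578 and LOC113061866, Schwann cell ligands of neurofascin, had 0.73 (adjusted p = 0.367) and 0.56 (adjusted p = 0.407, both by edgeR). In HA against MA the median of the list was -0.46. The contactin-1-like gene LOC113040288 had no count in the LA libraries and counts of 0, 46 and 17 in the MA libraries, so it rested on MA2 and MA3.

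Of the regulators and receptors of Schwann cells, 31 of 68 were tested, and 22 were positive in MA against LA around a median of 0.39. The POU domain class 3 factors, of the family that drives the step from promyelinating to myelinating Schwann cell in mammals, were among those of smallest p: LOC113116011 had mean levels of 2.65, 6.16 and 2.83 CPM and LOC113085621 of 1.62, 4.14 and 1.34 CPM in the LA, MA and HA groups. Their log2 fold changes in MA against LA were 1.22 and 1.36 (adjusted p = 0.204 each by edgeR), with no overlap of the libraries, and LOC113085621 had -1.62 in HA against MA (adjusted p = 0.185 by edgeR). The neuregulin co-receptor gene erbB-2-like (LOC113111896) had 0.61 in MA against LA (adjusted p = 0.320 by edgeR). *foxd3*, a transcription factor of the early neural crest, was lower in mean level in the MA group, with means of 27.0, 15.0 and 28.0 CPM (LA, MA and HA) and a log2 fold change of -0.85 (adjusted p = 0.300 by edgeR). The early growth response 2b-like gene LOC113111926, of the factor that switches on myelin genes, had -2.02 in HA against MA (adjusted p = 0.334 by edgeR) at mean levels of 0.275 CPM in HA and 1.15 CPM in MA. Sox-10, a defining Schwann cell marker, was present at low counts, unlike the members. A Sox-10-like gene (LOC113067404, chosen here as the copy with the highest count) had 27, 52 and 34 counts in the LA libraries, 74, 41 and 75 in the MA libraries and 50, 22 and 26 in the HA libraries, which overlap.

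Enzymes of myelin lipids, which make the cholesterol and galactolipids of the sheath, had a median log2 fold change of 0.08 in MA against LA over 17 tested genes, with none at an unadjusted p under 0.05. Those of smallest p were 3-hydroxy-3-methylglutaryl-coenzyme A reductase-like (LOC113039106, 1.32, adjusted p = 0.504 by edgeR) and the galactosyltransferase genes LOC113106881 (0.75) and LOC113044224 (0.58). The median of this list was -0.25 in HA against LA (13 of 17 negative) and -0.42 in HA against MA (12 of 17 negative). Over all tested genes the medians were -0.01 and 0.02. Markers of axons were sparse in the muscle RNA. Of 70 in the table, 22 had no count and 13 were tested, and the copies of synaptosomal-associated protein 25 and choline acetyltransferase were at or near 0 counts. The exceptions were neurofilament and ubiquitin hydrolase genes. The neurofilament heavy polypeptide-like gene LOC113041264 stood at 5.47, 10.2 and 6.39 CPM in the LA, MA and HA groups, with a log2 fold change of 0.89 in MA against LA (adjusted p = 0.184 by edgeR) and no overlap of libraries. The neurofilament medium polypeptide-like gene LOC113038718 had counts of 0, 588 and 290 in the MA libraries, of 68, 0 and 26 in the LA libraries and of 0, 41 and 15 in the HA libraries, so each diet had 1 library without a count. It was not called in the fit without a block (adjusted p = 0.504 and 0.481 in MA against LA and HA against MA). With the mapped-share rank block edgeR called it at log2 fold changes of 3.10 (adjusted p = 0.0144) and -3.95 (adjusted p = 0.00810), which was its only call in 17 alternatives of either comparison (adjusted p up to 1.00 by edgeR or DESeq2). A ubiquitin carboxyl-terminal hydrolase L1-like gene (LOC113107027) had -1.44 in HA against MA (adjusted p = 0.180 by edgeR).

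**Figure D3:**
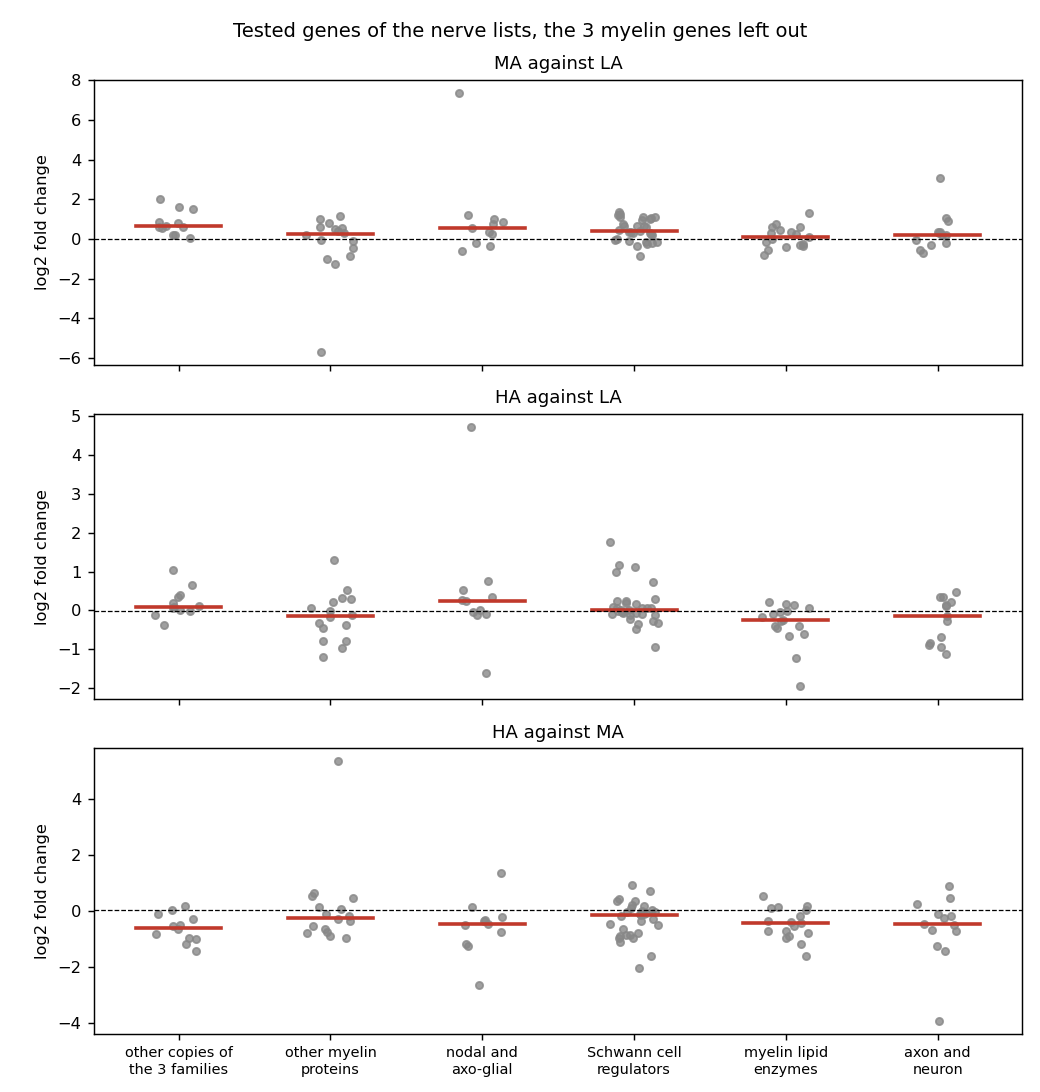
Log2 fold changes (vertical axes) of the tested genes in 6 nerve-related lists, the members left out, for each comparison; points are genes and the red bars medians. In MA against LA the medians run from 0.08 (myelin lipid enzymes) to 0.64 (other copies of the families), and in HA against MA all of them lie below 0.

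Lists of other cell types were read for what moved with the members. Summed over the nerve lists with the members left out, the level was 412 to 434 CPM in the LA libraries, 493 (MA1), 665 (MA2) and 575 (MA3) CPM in the MA libraries and 390 to 431 CPM in the HA libraries, so the MA libraries were the highest as for the members. Among the members, however, MA1 was the lowest MA library only for *mpz*. The nerve lists differed among themselves. The other copies of the families summed to 128 to 144 CPM in LA and 190 to 288 CPM in MA. The nodal and lipid enzyme lists were also highest in all MA libraries, but by narrow margins. The lowest MA library had 32.7 CPM for the nodal list, where the highest HA library had 32.2 CPM. For lipid enzymes the lowest MA library had 46.5 CPM and the highest LA library 45.6 CPM. LA and MA overlapped for other myelin proteins (81.5 to 101 and 83.8 to 98.6 CPM) and Schwann cell regulators (82.0 to 104 and 99.1 to 101 CPM). They also overlapped for axon markers (30.3 to 41.9 and 39.8 to 81.2 CPM). Slow muscle markers, of the red fibres that lie apart from white muscle, had their highest sums in MA2 (406 CPM) and MA3 (228 CPM). In that list 11 of 51 were tested, and 8 were positive in MA against LA. The list summed to 36.3 to 47.8 CPM in LA, 62.8 to 406 CPM in MA and 49.8 to 96.6 CPM in HA. Troponin C, slow skeletal and cardiac muscles-like (LOC113094721), a defining gene of that list, was at 0.512, 54.9 and 30.4 CPM in MA1 to MA3 and below 1 CPM in all LA and HA libraries. In MA1, where this gene was low, the list as a whole stood at 62.8 CPM. That was above every LA library but below HA1 (96.6 CPM) and HA3 (67.6 CPM), unlike the members. Of 51 markers of that list, 1 (a slow troponin I-like gene) had no count in any library.

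Leukocyte markers went the other way. All 18 tested of 30 were negative in MA against LA, with a median log2 fold change of -1.02, and the list summed to 97.4 to 288 CPM in the LA libraries, 89.1 to 99.8 CPM in the MA libraries and 86.6 to 113 CPM in the HA libraries. LA2 and LA3 were the high libraries and LA1 was not, whereas the members had like levels in the 3 LA libraries. Adipocyte markers, 4 tested of 7 and all 4 positive, summed to 27.7 to 38.9 CPM in LA, 39.1 to 52.2 CPM in MA and 35.7 to 48.2 CPM in HA, and the perilipin-1-like gene that defines fat cells did not pass the filter. Fast muscle markers summed to 280309 to 290658 CPM in LA, 233422 to 294123 CPM in MA and 208771 to 286739 CPM in HA. Pigment cell markers, which like Schwann cells derive from the neural crest, reached at most 3.55 CPM as a sum of 18 genes in any library. Endothelial, fibroblast and epidermal lists had median log2 fold changes of -0.26, 0.04 and -0.13 in MA against LA. In HA against MA, where the members and the nerve lists were lower, the fibroblast and matrix list had a median of -0.44 (25 of 29 negative), the epidermal list of -1.03 (5 of 9 negative) and the endothelial list of 0.15. The fibroblast and matrix list was also negative in HA against LA (median -0.43, 25 of 29), and it summed to 1698 to 3477 CPM in LA, 2523 to 3206 CPM in MA and 1746 to 2272 CPM in HA. The part of these lists in the levels of the members was not tested.

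**Figure D4:**
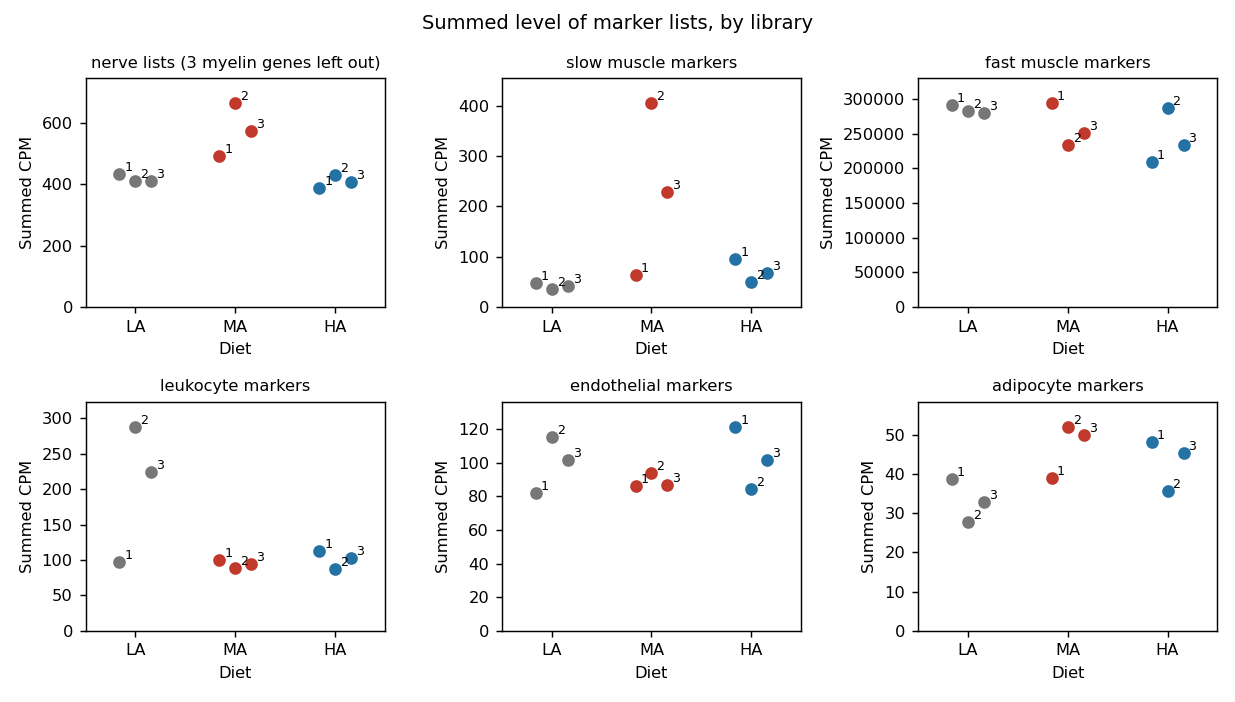
Summed CPM (vertical axes, starting at 0) of marker lists in each library, by diet; points are libraries with their numbers. The nerve lists without the members are highest in the MA libraries. The slow muscle list is highest in MA2 and MA3, while MA1 lies below HA1 and HA3. The leukocyte list is highest in LA2 and LA3.

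Among 19205 tested genes with a mean of at least 1 CPM, those whose log2 CPM followed a member most closely over the 9 libraries had r of 0.96 to 0.99. For LOC113060025 they were *ube2v2* (0.98), regulator of G-protein signaling 3-like (LOC113084745, 0.97), layilin-like (LOC113115099, 0.96) and *ccdc58* (0.96). For LOC113111672 they were a calcium/calmodulin-dependent protein kinase II beta-like gene (LOC113075261, 0.97), ciliary neurotrophic factor receptor subunit alpha-like (LOC113109582, 0.96), LOC113092641 (0.96) and LOC113106039 (0.96), named for tubulin polymerization-promoting protein family member 3. For *mpz* they were the mRNA decay activator ZFP36L2-like (LOC113057234, 0.99), LOC113106039 again (0.97), *ccdc58* (0.97) and metalloproteinase inhibitor 3-like (LOC113048552, 0.97). The last of these had mean levels of 1.29, 8.66 and 2.43 CPM in the LA, MA and HA groups, a wider range than that of *mpz*. With this many genes compared over 9 points in 3 diets, a high r is a description of likeness in these libraries only.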

How the data were processed

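Muscle RNA-seq libraries (9, 3 per diet) were assigned to diets by their titles, and table columns by the codes in the sample descriptions, where HA marks the LA diet, HB the MA diet and HC the HA diet. The authors deposited a table with a whole-number count and an FPKM value for every gene in every library, on gene models of ASM336829v1, and 69688 genes matched the RefSeq gene table of that assembly by identifier. FPKM was found to equal count over gene length and library total. No source used here names the aligner, the counter or the strand setting.

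Counts were fitted with edgeR 4.0.16 in R 4.3.3 (TMM, filterByExpr, quasi-likelihood, a coefficient for each diet, 6 residual degrees of freedom), and p-values were adjusted by Benjamini-Hochberg over the 23946 genes kept. The procedure was tested on simulated counts. The standard error of a fold change was taken from its F statistic. p-values measure only the spread between these libraries. The members, the gene lists and the alternatives were chosen with earlier results of these data known. Named list genes are up to 4 of smallest p per nerve list and comparison, and named relatives are the 4 genes of highest r. Alternatives were RLE size factors, other filters, DESeq2 1.42.0, blocks by replicate number or mapped-share rank, subsets of libraries, summed copies, FPKM (log2 of the mean plus 1) and leaving out each library.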

Additional observations from a re-analysis of the deposited data

How the results depend on the processing

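The log2 fold changes of the 3 members were taken again under 20 alternatives in each comparison. Among these were sums over each family, which add other genes, and a difference of mean FPKM, which is not a fit. Of 180 values, 179 kept their sign. The exception was LOC113060025 in HA against LA, at -0.03 with libraries 1 and 2 of each diet alone. Only there did a member's libraries overlap between the diets compared. Elsewhere most alternatives could hardly change a sign, so the kept signs say little about stability. Leaving out each library in turn gave 1.35 to 1.59 (MA against LA), 0.06 to 0.29 (HA against LA) and -1.45 to -1.19 (HA against MA) for LOC113060025, 0.81 to 0.95, 0.37 to 0.41 and -0.58 to -0.42 for LOC113111672, and 0.73 to 0.88, 0.20 to 0.36 and -0.57 to -0.49 for mpz. Values that moved by more than the replicate spread were the summed copies (0.87, 0.58 and 1.09 in MA against LA, 0.20 for pmp22 in HA against LA, -0.84 for mbp and -0.86 for mpz in HA against MA), the FPKM scale in HA against LA (0.51 for LOC113111672 and 0.39 for mpz), and mpz in HA against LA without LA1 and HA2 (0.36). The replicate numbers did not pair the libraries (correlations of -0.60 to 0.273), and with the replicate block the members had 1.48, 0.87 and 0.79 in MA against LA.

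The number of genes called over all genes depended on the setting far more. In the order MA against LA, HA against LA and HA against MA it was 20, 0 and 13 as reported, 542, 119 and 321 with no filter, 440, 49 and 296 by DESeq2, 116, 4 and 98 with the rank block, and 542, 219 and 75 without LA1 and HA2. It was 4 and 0 in MA against LA and HA against MA with the replicate block, 8 in MA against LA with only those diets fitted, and 0 in both with libraries 1 and 2 alone. Leave-one-out fits gave 0 (without MA3) to 293 (without LA1), 0 to 175 (without LA1) and 0 (without HA3) to 75 (without MA1). Leaving out any of the 9 libraries moved the count by over 1.5 times in MA against LA, LA1 or HA2 (10 genes) did so in HA against LA, and each library but LA2 and HA2 did so in HA against MA. Nerve-list genes called were 3 (MA against LA) and 1 (HA against MA) with no filter, 5 and 5 by DESeq2, 2 (LOC113038718 and LOC113045081) and 3 (these and LOC113120103) with the rank block, and 7 in MA against LA and 1 in HA against LA without LA1 and HA2. Leave-one-out fits gave 0 to 2, 0 to 1 and 0 in all of HA against MA. Shares called over all genes stand beside these counts. By DESeq2, 0.965% were higher in MA against LA and 0.71% lower in HA against MA. With the rank block 0.484% and 0.409% were called, and without LA1 and HA2 2.16% in MA against LA. With no filter, 542 and 321 of the 48369 genes with a count were called. The cause of these shifts in the number of calls was not tested.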
